A study of Mus musculus with 3 samples.

Results

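The 9 genes described here encode the amyloid precursor protein family (App, Aplp1 and Aplp2), both beta-secretases (Bace1 and Bace2), several subunits of the gamma-secretase complex (Psen2, Ncstn and Aph1a) and the microtubule-associated protein tau (Mapt). They were chosen by symbol among the 33101 gene names with a value in the authors' deposited table, and each had a single entry. The tissue was dentate gyrus, the granule cell region of the hippocampus, micro-dissected on both sides from male C57BL/6 mice (strain given as C57Black6) of 8 to 10 weeks. The mice were wild type, and no allele, agent or second condition was part of the series, so all comparisons below are between genes within this tissue. The 3 libraries form 1 group, but the table has 1 FPKM column for the group, a level in fragments that is corrected for transcript length and library size. Every value is therefore the authors' own with no replicate error, no test was possible, and the read depth behind it is unknown.

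Amyloid precursor protein is a membrane protein that is cut in steps. An alpha-secretase cuts within the amyloid-beta stretch and so prevents its release, whereas a beta-secretase cuts at its start, after which gamma-secretase cuts within the membrane and frees amyloid-beta peptides of several lengths. Gamma-secretase is assembled from a presenilin, which carries the catalytic site, with nicastrin, an APH1 protein and PEN2. Tau binds and stabilises microtubules, mostly in axons, and with amyloid-beta it forms the hallmark deposits of Alzheimer disease. None of these deposits was measured here.

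The stretch of App that encodes amyloid-beta is shown because it is what sets App apart from its relatives. It lies at chr16:84962794-84965720 on the minus strand (GRCm38), in exons 16 and 17 of the annotated transcript App-206, and the sequence below is the joined coding sequence of 42 codons, 5′ to 3′. Capitals mark the last 2 codons, which the 42-residue peptide includes and the 40-residue peptide lacks.
App amyloid-beta: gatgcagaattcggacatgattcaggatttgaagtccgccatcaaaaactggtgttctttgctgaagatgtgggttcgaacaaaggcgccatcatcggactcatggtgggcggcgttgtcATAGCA
The first 4 residues of this stretch occurred once in the translated App and not at all in the translated Aplp1 or Aplp2. In a global alignment of the longest annotated forms, Aplp2 matched App at 16 of 40 aligned residues of the stretch, against 58.5% over the whole protein. Aplp1 matched App at 8 of 40 such residues, against 45.2% over the whole protein.

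The cytoplasmic tail, by contrast, has a stretch that all 3 genes share, around the sorting signal of the asparagine-proline-x-tyrosine type that binds adaptor proteins. The windows of 17 codons below show it. They were placed by this signal, so its own residues are shared by the choice of window. Capitals mark the bases that are the same in all 3 genes, which are 27 of 51 bases.
App tail: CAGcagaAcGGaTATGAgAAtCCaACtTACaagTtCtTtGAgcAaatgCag
Aplp1 tail: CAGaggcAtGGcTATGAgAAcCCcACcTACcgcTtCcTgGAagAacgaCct
Aplp2 tail: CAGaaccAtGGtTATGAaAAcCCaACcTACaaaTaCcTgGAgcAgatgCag
They lie on the minus strand of GRCm38 at chr16:84955337-84955387 for App, chr7:30435296-30435346 for Aplp1 and chr9:31150877-31150927 for Aplp2, each in the last coding exon. In translation 9 of 17 residues were shared by all 3 genes, and App matched Aplp2 at 13 of 17 residues and Aplp1 at 10 of 17.

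Genes of the APP family stood highest among the 9. Aplp1, a family member found mainly in neurons and without an amyloid-beta stretch, was listed at 440 FPKM. App itself was listed at 241 FPKM, and Aplp2, the widely expressed member, at 117 FPKM. Aplp1 thus exceeded App by 1.83-fold, and App exceeded Aplp2 by 2.05-fold. The transcripts named for App and Aplp1 were not found in the annotation, as described below. Ratios and shares with either gene may therefore set unlike transcript forms side by side, which was not tested. Of the 798 FPKM summed over the family, Aplp1 carried 55.1%, App 30.2% and Aplp2 14.7%. All 3 exceeded 100 FPKM, a level that 2.08% of all names and 2.63% of 20135 protein-coding names reached. Aplp1 was the name in place 78 from the top, App stood in place 188 and Aplp2 in place 561. As the tissue was measured in bulk, more cells of a type and more RNA per cell cannot be told apart for these or any other values here.

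**Figure D1:**
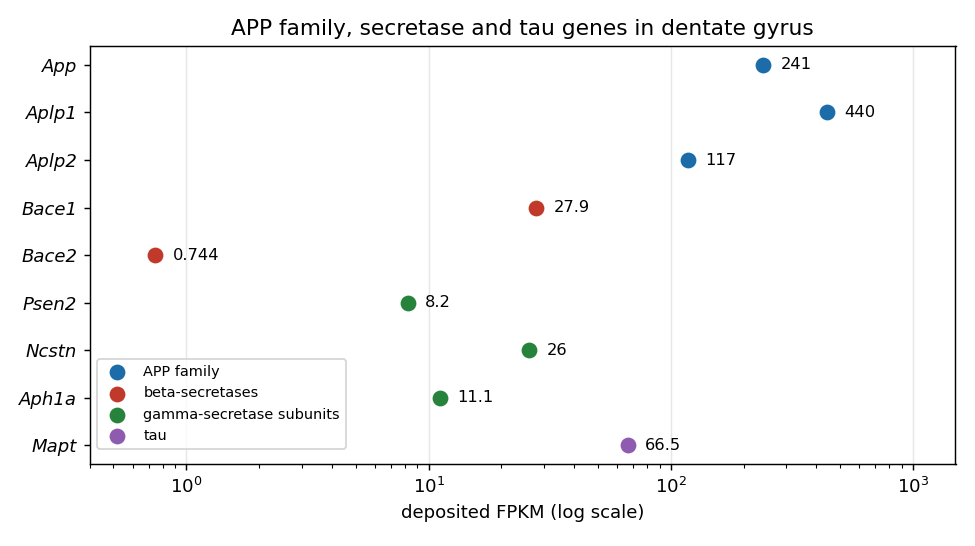
Deposited FPKM (horizontal log axis) of the 9 genes, 1 point per gene and coloured by role, with the value beside each point. The APP family lies at 117 to 440 FPKM, tau at 66.5 FPKM, and Bace2 alone lies under 1 FPKM.

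Of the beta-secretases, aspartic proteases of the membrane, nearly all transcript signal came from Bace1. Bace1, the main beta-secretase of neurons, was listed at 27.9 FPKM, and Bace2, best known from peripheral tissues, at 0.744 FPKM. Bace1 was thus 37.4 times Bace2 and carried 97.4% of their sum. With 1 FPKM added to both values the ratio was 16.5. Bace2 was the only one of the 9 under 1 FPKM, and 41.9% of protein-coding names lay below it. Since the depth is unknown and no replicate value was used, a level this low has an unknown error.

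Both proteases share the catalytic motifs of their class, shown here because the genes differ so much in level and so little in these sites. Each line is a window of 10 codons, and capitals mark the 3 codons that start with the catalytic aspartate.
Bace1 first motif: atcctggtgGACACGGGCagtagtaacttt
Bace2 first motif: attcttgtgGACACTGGAagcagtaacttc
Bace1 second motif: agcattgtgGACAGTGGGaccaccaacctt
Bace2 second motif: gccattgtgGACAGTGGCaccacgctcctg
On the plus strand of GRCm38 the Bace1 windows lie at chr9:45852894-45852923 in exon 2 and chr9:45858415-45858444 in exon 6. Those of Bace2 lie at chr16:97399640-97399669 in exon 2 and chr16:97415094-97415123 in exon 6. The first windows agree at 24 of 30 bases and the second at 23 of 30, and the whole proteins are identical at 50.7% of 475 aligned residues. The catalytic aspartates are residues 93 and 289 of the translated Bace1 and residues 106 and 299 of the translated Bace2.

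The gamma-secretase genes all lay lower than every gene of the APP family. Ncstn, which encodes nicastrin, the large glycoprotein subunit that gates access of substrates, was listed at 26.0 FPKM. Aph1a, the main gene of the APH1 scaffold subunit, was at 11.1 FPKM, and Psen2, which encodes a presenilin, was at 8.20 FPKM. Ncstn was 3.18 times Psen2 and Aph1a was 1.36 times Psen2, whereas Aph1a stood at 0.428 of Ncstn. The table names an incomplete transcript for Psen2 and a nonsense-mediated decay form for Ncstn, as described below. Ratios with either gene may therefore set unlike transcript forms side by side, which was not tested. No member of this group reached 100 FPKM, and 2 of 3 reached 10 FPKM, a level that 21.1% of all names and 30.8% of protein-coding names reached.

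Values of 3 other subunit genes are given beside them. Aph1b was at 6.11 FPKM and Aph1c at 2.16 FPKM, and Aph1a carried 57.4% of the 19.4 FPKM summed over the 3 APH1 genes. Mouse Aph1b and Aph1c are close paralogs, so the division of reads between them is uncertain. Psenen, which encodes PEN2, was at 11.0 FPKM. Ncstn was 1.34 times the APH1 sum and 2.36 times Psenen.

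**Figure D2:**
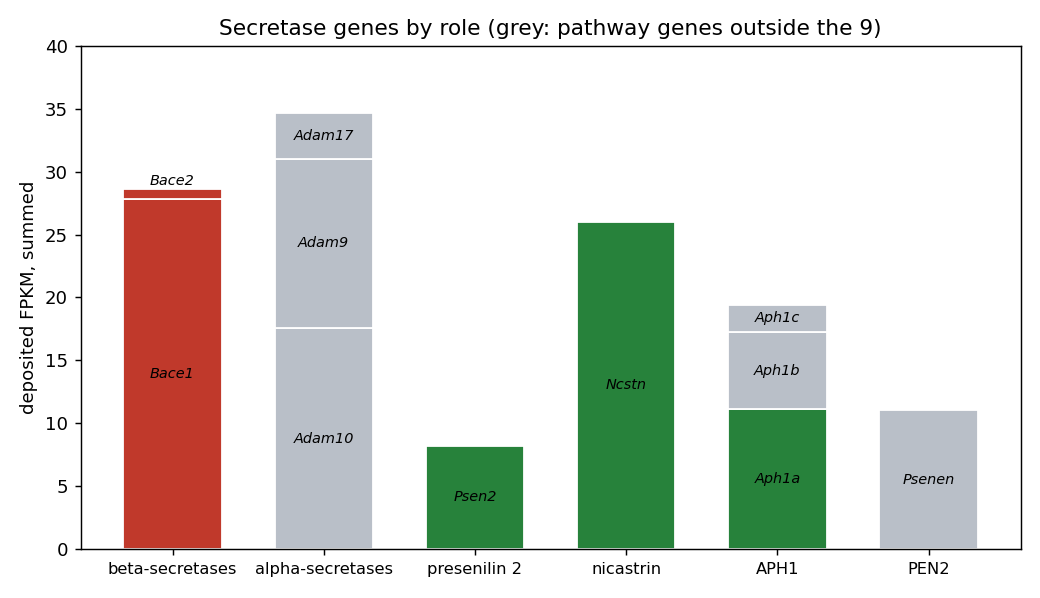
Deposited FPKM (vertical axis from 0) summed by role, with each gene a segment of the bar, in colour for the genes described here and grey for other pathway genes. Bace1 nearly fills the beta-secretase bar of 28.6 FPKM, and Aph1a makes up the lower part of the APH1 bar of 19.4 FPKM.

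Against their substrates the proteases were low. App was 8.64 times Bace1, and the APP family sum was 27.9 times the sum of the beta-secretases. Bace1 was 1.59 times Adam10, the main alpha-secretase of neurons, which was at 17.6 FPKM. Over all 3 genes most often named as alpha-secretases, namely Adam10, Adam17 at 3.67 FPKM and Adam9 at 13.5 FPKM, the beta-secretase sum stood at 0.824 of the alpha-secretase sum. These are ratios of transcript levels per length, not of protein or enzyme activity.

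Mapt was the fourth highest of the 9 at 66.5 FPKM, above 95.5% of protein-coding names. App was 3.62 times Mapt. Of 9 other microtubule-associated protein genes, 6 stood above Mapt, and Map6 at 26.9 FPKM, Map1s at 22.0 FPKM and Dcx stood below it. Mapt stood at 0.314 of Map2, the dendritic protein gene, which was at 212 FPKM. It stood at 0.421 of Map1a at 158 FPKM and at 0.646 of Map1b at 103 FPKM.

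In order of level the 9 genes were Aplp1, App, Aplp2, Mapt, Bace1, Ncstn, Aph1a, Psen2 and Bace2. The smallest step between neighbours was 1.07-fold, between Bace1 and Ncstn, and the next was 1.36-fold, between Aph1a and Psen2. The largest was 11.0-fold, between Psen2 and Bace2, and the other steps were 1.77-fold to 2.39-fold. Without a spread over libraries, it cannot be said which of these neighbours differ. Of the 9 genes, 8 reached 1 FPKM, against 39.6% of all names and 56.4% of protein-coding names. At 10 FPKM or more there were 7 of the 9, against 21.1% of all names and 30.8% of protein-coding names. At 100 FPKM or more there were 3, against 2.08% of all names and 2.63% of protein-coding names. Their median was 27.9 FPKM, against 0.0869 FPKM over all names and 2.46 FPKM over protein-coding names. The 9 genes were picked for a known role in brain, so nothing particular to the list is read from this.

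**Figure D3:**
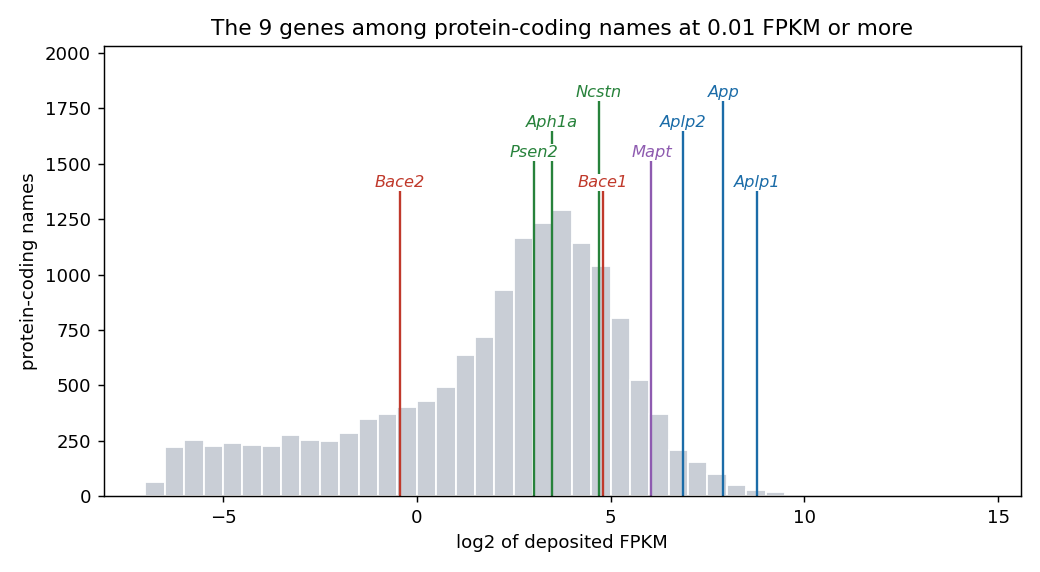
Histogram of log2 deposited FPKM (horizontal axis) for protein-coding names at 0.01 FPKM or more (vertical axis, number of names), with a labelled line for each of the 9 genes. Aplp1, App and Aplp2 stand in the right tail, and Bace2, at -0.43 on the log2 scale, stands left of the main peak.

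Each entry names 1 transcript, and what that transcript is differed between the genes. For Aplp2, Bace1, Bace2 and Aph1a it was a complete coding form close to the longest, with 2121 of 2253, 1401 of 1503, 1542 of 1542 and 741 of 795 coding bases. The Mapt transcript was coding too, with 1116 bases, against 2247 in the longest form, which holds an exon of 759 bases. Ncstn was listed with a nonsense-mediated decay form of 2777 nt whose annotated coding part is 186 bases, against 2124 bases in the full form. Psen2 was listed with an incomplete form of 232 nt in 3 exons with 117 coding bases, against 1344 in the full form. The transcripts listed for App and Aplp1 were not found in GENCODE M21. The listed Aplp2 form lacks the optional exon of 168 bases that 1 of its 3 complete coding forms includes. An optional exon of the same length is in 5 of 6 complete coding forms of App. Aplp1 has 1 complete coding form, so an optional exon could not be seen by comparing its forms. The optional exon of App and Aplp2 encodes a protease inhibitor domain of the Kunitz type.

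**Figure D4:**
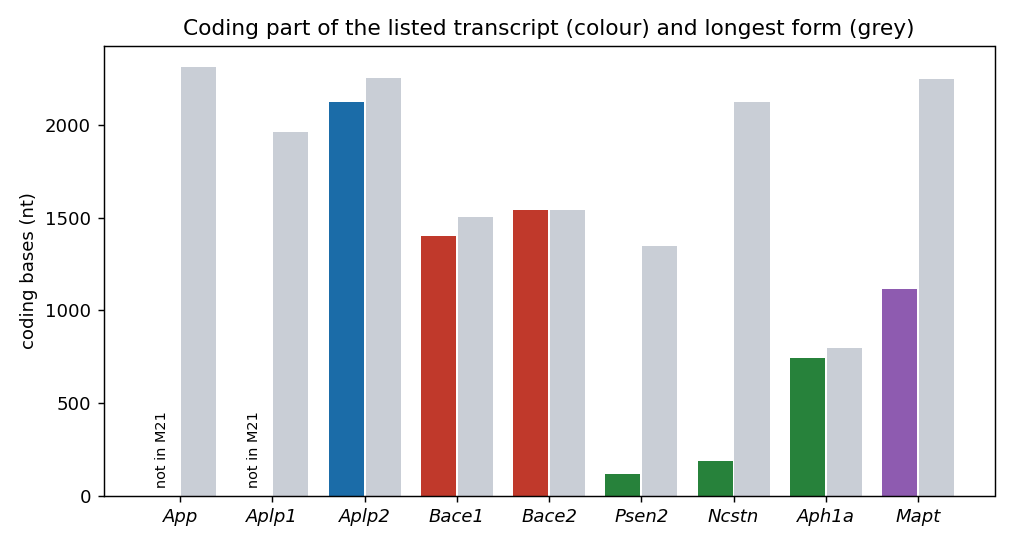
Coding bases (vertical axis from 0) of the transcript listed for each gene, in colour on the left, and of the longest annotated coding form, in grey on the right. The listed forms of Psen2 and Ncstn reach 117 and 186 bases, and those of App and Aplp1 are not in GENCODE M21.

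Whether an FPKM value belongs to the listed transcript or to the whole gene is stated nowhere in the labels or the header, and this bears most on Psen2 and Ncstn. The coordinates mostly follow the listed transcript. Of 8900 entries whose transcript and gene spans differ in GENCODE M21, the span in the table equals the transcript span in 6128. It equals the gene span in 113 and neither span in the rest. This concerns the spans and does not show how the FPKM value was computed. Among 131 protein-coding entries whose listed transcript was under 300 nt, 97 were listed at 0 and 10 reached 10 FPKM. Among 18312 entries with longer listed transcripts, 23.7% were at 0 and 30.8% reached 10 FPKM. The Psen2 value of 8.20 FPKM therefore comes from a class of entries that is mostly listed at 0. Entries listed with a nonsense-mediated decay form, as for Ncstn, had a median of 5.01 FPKM over 378 entries, against 2.25 FPKM over 17168 entries listed with a coding form. The part of these listed forms in the Psen2 and Ncstn values was not tested.

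The coordinates in the table mostly follow the listed transcript, but not for each of the 9 genes. The Aplp2 entry covers 62259 bases, as the gene does, against 62237 bases for its listed transcript. The Bace2 entry covers 82285 bases, against 86195 bases for both its transcript and its gene. For App and Aplp1 the listed transcript could not be compared. In mm9, the App entry spans chr16:84954685-85173950, Aplp1 chr7:31220001-31230580 and Aplp2 chr9:30957142-31019400, all on the minus strand. The Bace1 entry spans chr9:45646663-45670567 and Bace2 chr16:97578335-97660619 on the plus strand. The Psen2 entry spans chr1:182175769-182193569 and Ncstn chr1:173996144-174012926 on the minus strand, Aph1a chr3:95697892-95702211 and Mapt chr11:104092704-104193404 on the plus strand. The Psen2 entry covers 17801 bases, against 36435 bases for the gene in GENCODE M21, and the Bace1 entry 23905 bases, against 25820 bases. Within these spans no other entry of the table overlaps App, Aplp1, Aplp2, Bace2 or Psen2. Genes on the opposite strand overlap the entries of the rest, and the protocol describes no step that keeps the strand, so reads in the shared bases cannot be assigned. Bace1 shares 1589 bases with Gm16536 at 5.54 FPKM and 72 bases with Rnf214 at 20.1 FPKM, Ncstn shares 267 bases with Copa at 66.7 FPKM, and Aph1a shares 521 bases with Car14 at 1.55 FPKM. Of the 3 entries within Mapt, 2 lie on the opposite strand and the other on the same strand, and all were listed at 0.

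Around the 9 genes, 134 further genes of the pathway were set out by role, and 122 of them reached 1 FPKM, 99 reached 10 FPKM and 25 reached 100 FPKM. These were 91.0%, 73.9% and 18.7% of them, against 39.6%, 21.1% and 2.08% of all names and 56.4%, 30.8% and 2.63% of protein-coding names. The lists hold genes known for a role in this pathway, so nothing particular to them is read from these shares. Among 18 adaptors and binding proteins of APP, 13 (72.2%) reached 10 FPKM, led by Itm2c at 326 FPKM and Itm2b at 292 FPKM, membrane proteins that bind APP, with Apba3 lowest at 0.658 FPKM. Of 18 trafficking genes, 15 (83.3%) reached 10 FPKM, led by the reticulon genes Rtn1 at 547 FPKM and Rtn3 at 265 FPKM. Rtn3 binds Bace1 protein and lowers its activity, and it stood above Bace1 itself. The sorting receptor gene Sorcs1 was the lowest of these at 0.156 FPKM. Of 12 BACE1 substrates, 7 (58.3%) reached 10 FPKM, from Sez6l2 at 151 FPKM and Sez6l at 74.4 FPKM down to Nrg1 at 0.0970 FPKM.

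Of 12 alpha-secretases and their partners, 7 (58.3%) reached 10 FPKM, against 30.8% of protein-coding names, led by the tetraspanin genes Tspan5 at 57.8 FPKM, whose product helps Adam10 to mature, and Tspan33 at 28.1 FPKM, and Rhbdf2 was lowest at 0.0283 FPKM. Among 6 modulators of gamma-secretase, Bsg was highest at 204 FPKM, followed by Ubqln2 at 61.9 FPKM, and Gsap was lowest at 2.41 FPKM. Among 6 other proteases that cut APP, the lysosomal genes Ctsb and Lgmn were at 69.2 and 36.1 FPKM, and Mep1b was listed at 0. Of 14 genes for degradation or binding of amyloid-beta, 7 (50.0%) reached 10 FPKM. The secreted carriers Apoe at 1493 FPKM and Cst3 at 944 FPKM stood highest and Plg lowest at 0.0112 FPKM.

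Of the genes that act on tau, 4 of 17 genes for kinases or their activators stood above Mapt at 66.5 FPKM. So did 6 of 11 phosphatase and isomerase genes and 4 of 9 chaperone genes. The kinase list holds Cdk5r1 at 72.0 FPKM and Cdk5r2 at 65.1 FPKM, which encode kinase activators. Of these, Cdk5r1 is one of the 4 above Mapt. Mapt itself stood above 95.5% of protein-coding names. The lists hold genes known for a role with tau, so nothing particular to them is read from these counts. The list medians were 33.9 FPKM for kinases with their activators, 74.3 FPKM for phosphatases and 49.5 FPKM for chaperones. Of the 17 genes of the kinase list, 15 (88.2%) reached 10 FPKM, against 30.8% of protein-coding names. They ran from Camk2a at 1205 FPKM and Mapk3 at 159 FPKM, and Ttbk2 was lowest of the list at 0.0752 FPKM. Of the phosphatase and isomerase genes, 10 (90.9%) did, led by the calcineurin subunit gene Ppp3ca at 546 FPKM and by Ppp2r1a at 165 FPKM, the scaffold of the phosphatase PP2A, with Ppp2r2b lowest at 1.43 FPKM. Of the chaperone genes, 8 (88.9%) did, led by Hsp90ab1 at 548 FPKM and Hspa8 at 274 FPKM, with Bag3 lowest at 2.31 FPKM. Of the 9 other microtubule-associated protein genes, 8 (88.9%) did, with Dcx, a marker of immature neurons, lowest at 0.0557 FPKM. The low Dcx value was not read as absence of the transcript or of such cells, as with Tubb3 below.

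**Figure D5:**
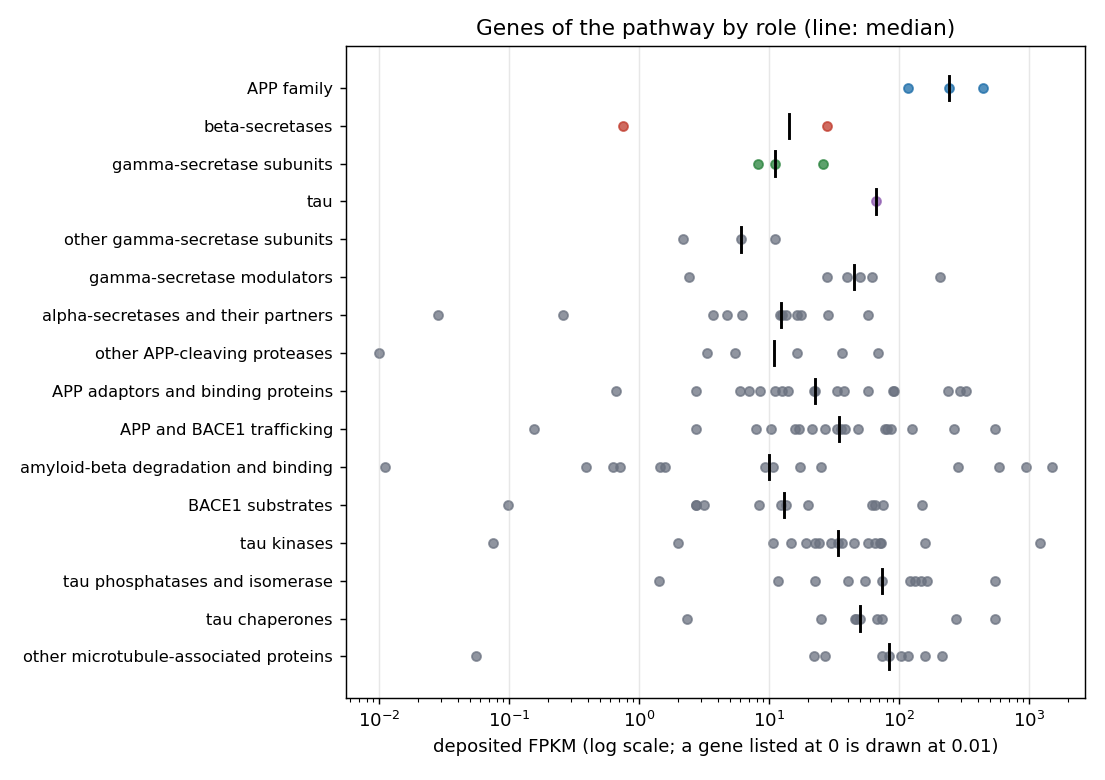
Deposited FPKM (horizontal log axis) of the genes of each role, 1 point per gene with the list's median as a black line; the 9 genes are in colour in the 4 upper rows. The median is 241 FPKM for the APP family, 74.3 FPKM for tau phosphatases and 12.3 FPKM for alpha-secretases and their partners.

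The labelled tissue was checked against markers. All 8 granule cell genes reached 10 FPKM, against 21.1% of all names and 30.8% of protein-coding names, led by C1ql2 at 111 FPKM. All genes of the astrocyte and microglia lists reached 10 FPKM too, so this count does not single out granule cells. Neuronal genes had a median of 239 FPKM, led by Syp at 528 FPKM, but the neuronal tubulin gene Tubb3 was at 0.158 FPKM, so a low value in this table was not read as absence of the transcript. Cells other than neurons also contributed, with list medians of 140 FPKM for astrocytes (highest Slc1a2 at 267 FPKM), 55.1 FPKM for oligodendrocytes (highest Mbp at 261 FPKM) and 26.7 FPKM for microglia (highest C1qb at 38.9 FPKM). Endothelial, choroid plexus and other organ lists had medians of 2.62, 0.273 and 0 FPKM, with Cldn5, Kl and Sftpc highest at 7.96, 6.06 and 2.19 FPKM. Pecam1, Folr1, Prlr, Alb, Ins2 and Umod were listed at 0. Which cells carried App, Bace1, Mapt or the other genes was not tested.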

How the data were processed

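Poly(A) RNA of 3 dentate gyrus libraries was fragmented, copied to cDNA from random primers and sequenced, per the labels' protocols. TopHat and Cufflinks with mm9 and NCBIM37 are named in the submitters' processing notes; neither versions nor whether the group value pools or averages libraries is stated there. The FPKM values are as deposited by the authors, named so per the file headers. Rows that share a name were summed, which changed none of the 9 genes. The 1212 of 37681 rows without a value were left out. Gene types and transcripts come from GENCODE M21 (GRCm38), matched by Ensembl identifier without coordinates. Coding sequences were translated and aligned globally (BLOSUM62) with Biopython 1.88. No value per library was analysed here, so no test, interval or detection limit is given. Summing and ranking were tested on simulated data. The members and lists were chosen with earlier results of these data known. Some items of the lists and sequences are not reported here, and counts are over the genes kept. The 192 list entries were found by symbol (184), older symbol (7) or identifier (1). Text names all 9 members, and of each other list the 2 highest and the lowest gene, together with the genes of fixed pairs. For marker lists it names the highest gene and those listed at 0. Adam10, Adam17, Adam9, Tubb3, Map6, Map1s, Cdk5r1, Cdk5r2 and the overlapping genes were named after their values were seen. Alternatives changed the pseudocount, the background names, the scaling, the list summary and the members used. Python 3.11.15, pandas 2.3.3 and matplotlib 3.10.9 were used.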

Additional observations from a re-analysis of the deposited data

How the results depend on the processing

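Of 60 values recomputed under alternatives, 15 could not move by construction: the 9 genes have 1 row each, and 6 lists hold no gene under 0.1 FPKM. Of the other 45, 41 stayed within 1.5-fold of the reported value, a limit used because there is no replicate error. Many of the 45 are ratios of genes at 8.20 FPKM or more with 0.1 or 1 FPKM added. Such ratios could hardly move, so that they stayed within the limit says little. With 1 FPKM added, the ratio of Bace1 to Bace2 was 16.5 in place of 37.4, because Bace2 lies under the added value. With names at 0.1 FPKM or more as background, the share of names at 1, 10 and 100 FPKM or more was 80.0%, 42.6% and 4.22%, since names near 0 are then left out. When mitochondrial genes, 18.4% of the summed FPKM, were left out of the scaling, Psen2 stood at 10.0 FPKM, so that 8 of the 9 genes reached 10 FPKM in place of 7. In place of the median of 27.9 FPKM, the back-transformed mean of log2(FPKM + 0.1) of the 9 was 33.0 FPKM, and the median was 19.5 FPKM over the 4 with a coding listed transcript of at least 0.5 of the longest form. Leaving out each replicate was not run, since the table holds 1 column for the group. No paired analysis was possible because the series has a single group. Depth is unknown, which limits low values such as Bace2 most.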

Other observations

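For 6 of the genes RefSeq (GRCm38.p6) gave promoter entries of 300 bases, in which CpG sites were counted. The dinucleotide CG was counted on the given strand, and it reads the same on the other strand. App had 30 CpG sites, Aplp2 had 29, Aplp1 had 26 and Ncstn had 25. Aph1a had 10, and the 2 entries of Psen2 had 23 and 8. The median of these 7 promoters was 25 CpG sites, against 7 over 32851 promoters of the table. Bace1, Bace2 and Mapt had no entry. Of the 7, the entries of Aph1a and the second of Psen2 lay near the median of all promoters. No background of protein-coding genes alone was counted, and Psen2 enters with 2 entries. Nothing particular to the list is therefore read from the difference in medians. Methylation of these sites was not analysed here.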
